A study of Mus musculus with 7 samples.

Results

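Among 7 RNA sequencing libraries of cultured mouse oligodendrocyte precursor cells (OPCs), 3 held Gpr17 RNA at 2000 CPM (counts per 1e+06 counts of a library) or more and 4 held less, and this split is described here across all other genes. The sides were chosen by the measured CPM of Gpr17 alone. The 3 Gpr17-high libraries were control 1, control 2 and PE 2, with 4673, 3319 and 3260 CPM of Gpr17. The 4 Gpr17-low libraries were control 3, PE 3, control 4 and PE 4, with 909, 894, 681 and 664 CPM. PE 2 was the nearest library above the limit at 3260 CPM and control 3 the nearest below it at 909 CPM. No library was near 2000 CPM. Values below are given in this order of libraries. The split was made on Gpr17 in these same libraries, so differences between the sides are described with no test. They do not support the split.

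All libraries came from primary OPCs of wild-type CD-1 mouse pups aged P4 to P7 (postnatal days), with males and females equally represented. The 4 control libraries were untreated and the 3 PE libraries received the α1-adrenergic agonist phenylephrine (PE) at 20 µM for 1 hour. Control and PE libraries of numbers 2, 3 and 4 also share a code in their titles, while control 1 has no treated partner, so the Gpr17-high side rests on 2 culture numbers and the Gpr17-low side on 2 others. The labels do not say how many pups or cultures a number stands for, and they name no vehicle. The study asks how noradrenergic signalling acts on OPC calcium and proliferation.

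OPCs divide under mitogens such as PDGF and FGF and can leave the cell cycle to become myelinating oligodendrocytes. On the way they pass through a premyelinating state that is marked by the G protein-coupled receptor GPR17 and by BCAS1, and GPR17 is lost again when myelin is made. Cyclin D1 drives entry into the cycle from G1, MCM and CDC6 proteins license replication origins before S phase, and Ki-67 is present throughout the cycle of dividing cells. The transcription factor MYRF is needed for expression of myelin genes.

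The upstream sequences of 3 replication genes and of 1 immediate early gene are printed because several results below turn on their lists. They are the 250 bases before the RefSeq transcription start on GRCm38.p6, read along the gene's strand from 5′ to 3′. For each list, the genes shown are those with the greatest difference between the sides that hold the motif. In the first 3, capitals mark an E2F motif, the recognition sequence of the factors that drive replication genes at the G1 to S transition. In the last, capitals mark a CArG box, the recognition sequence of serum response factor.
Cdc6 at chr11:98907901-98908150 (plus strand): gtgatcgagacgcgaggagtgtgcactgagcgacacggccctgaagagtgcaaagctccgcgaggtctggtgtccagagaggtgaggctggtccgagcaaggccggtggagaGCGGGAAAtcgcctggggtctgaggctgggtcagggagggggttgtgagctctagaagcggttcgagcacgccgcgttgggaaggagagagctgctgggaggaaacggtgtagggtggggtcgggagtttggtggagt
Orc1 at chr4:108579204-108579453 (plus strand): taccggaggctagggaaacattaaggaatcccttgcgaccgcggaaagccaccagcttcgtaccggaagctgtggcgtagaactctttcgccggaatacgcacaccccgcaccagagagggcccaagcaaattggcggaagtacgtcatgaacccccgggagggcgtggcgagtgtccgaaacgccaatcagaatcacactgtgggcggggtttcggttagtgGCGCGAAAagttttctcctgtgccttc
Hells at chr19:38930740-38930989 (plus strand): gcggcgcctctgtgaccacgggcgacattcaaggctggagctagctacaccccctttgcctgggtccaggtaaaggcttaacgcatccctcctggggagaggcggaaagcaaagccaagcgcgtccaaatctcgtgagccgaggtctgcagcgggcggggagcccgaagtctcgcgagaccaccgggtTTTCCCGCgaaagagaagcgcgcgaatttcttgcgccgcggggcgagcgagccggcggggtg
Egr2 at chr10:67537316-67537565 (plus strand): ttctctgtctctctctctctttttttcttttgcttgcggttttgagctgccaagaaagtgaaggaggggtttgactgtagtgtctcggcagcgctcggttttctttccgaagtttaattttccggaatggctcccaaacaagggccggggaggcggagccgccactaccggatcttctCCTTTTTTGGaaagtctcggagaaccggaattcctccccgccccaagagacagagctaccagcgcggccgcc
The motif began at position -138 from the start in Cdc6, -27 in Orc1, -62 in Hells and -72 in Egr2.

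The libraries held 12837463 to 17962339 counts, and mitochondrially encoded genes took 2.49% to 2.53% of them in the Gpr17-high and 2.05% to 2.18% in the Gpr17-low libraries. Of 15933 genes other than Gpr17 that passed the filter on low counts, 1281 (8.04%) were at least 2-fold higher in the Gpr17-high libraries with no overlap of libraries between the sides. Another 684 (4.29%) were higher by this rule in the Gpr17-low libraries. These are the genes called higher on a side below, and the difference is that of log2 CPM averaged within culture numbers and then over the 2 numbers of a side. Without the 2-fold limit, 25.2% and 26.4% of genes did not overlap in one or the other direction. Single libraries of the same number differed 2-fold in 184 to 272 genes, libraries of the same side with other numbers in 499 to 834, and libraries of opposite sides in 1552 to 3191.

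Transcripts of hepatocytes, the secretory cells of the liver, were present in every library and differed between the sides. A list of 53 hepatocyte genes, chosen after their values were seen, summed to 1.28%, 1.08% and 1.53% of counts in the Gpr17-high libraries against 0.519%, 0.563%, 0.443% and 0.383% in the Gpr17-low libraries. Albumin (Alb) alone stood at 3924, 3345 and 4743 CPM against 1594, 1709, 1360 and 1183 CPM. All 52 that passed the filter were called higher in the Gpr17-high libraries, with a median difference of 1.40 and a range of 1.02 to 1.51 on the log2 scale. Their proportions to each other were nearly the same in each library, with a median chi-square per degree of freedom of 1.13 against one common profile, where 1 is counting noise. Of all tested genes, 230 kept a constant ratio to this sum over the 7 libraries (SD of the log2 ratio under 0.15), and all 230 were called higher in the Gpr17-high libraries. The sum itself differs between the sides, so the direction of genes that keep this ratio is fixed by the limit and is no separate result. At an SD under 0.3 there were 709 such genes, of which 664 were called. Leaving them out, 1051 of 15703 genes (6.69%) or 617 of 15224 genes (4.05%) were called higher in the Gpr17-high libraries. The 684 genes of the other direction kept their number, which the limits also fix. A gene of OPCs that differed by a similar factor also keeps that ratio, and the source of the hepatocyte transcripts was not tested.

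**Figure D1:**
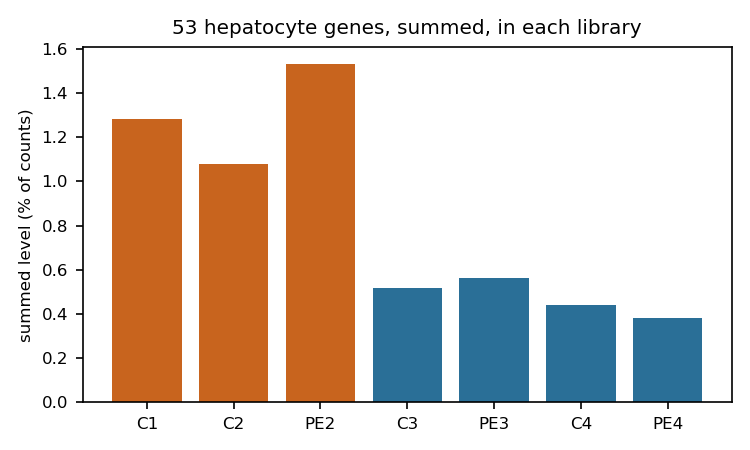
Summed level of 53 hepatocyte genes as a percentage of all counts, 1 bar per library (C, control; PE, phenylephrine; orange, Gpr17 at 2000 CPM or more; blue, below). The orange bars reach 1.08% to 1.53% and the blue bars 0.383% to 0.563%.

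The 2 other markers of the split ran against Gpr17. Ccnd1, which encodes cyclin D1 (chr7:144929931-144939925, minus strand, GRCm38), was at 277, 484 and 431 CPM against 1766, 1681, 2219 and 2177 CPM. Its difference of -2.49 spanned -3.03 to -1.95 over the 4 pairings of culture numbers across the sides. Mki67, which encodes Ki-67 (chr7:135689784-135716361, minus strand), was at 472, 712 and 738 CPM against 1090, 1042, 1256 and 1105 CPM. Every Gpr17-high library was below every Gpr17-low library for both genes, but the Mki67 difference of -0.97 stayed under 2-fold. Exons of Ccnd1 overlap those of LTO1, and the library kit does not mark strand.

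**Figure D2:**
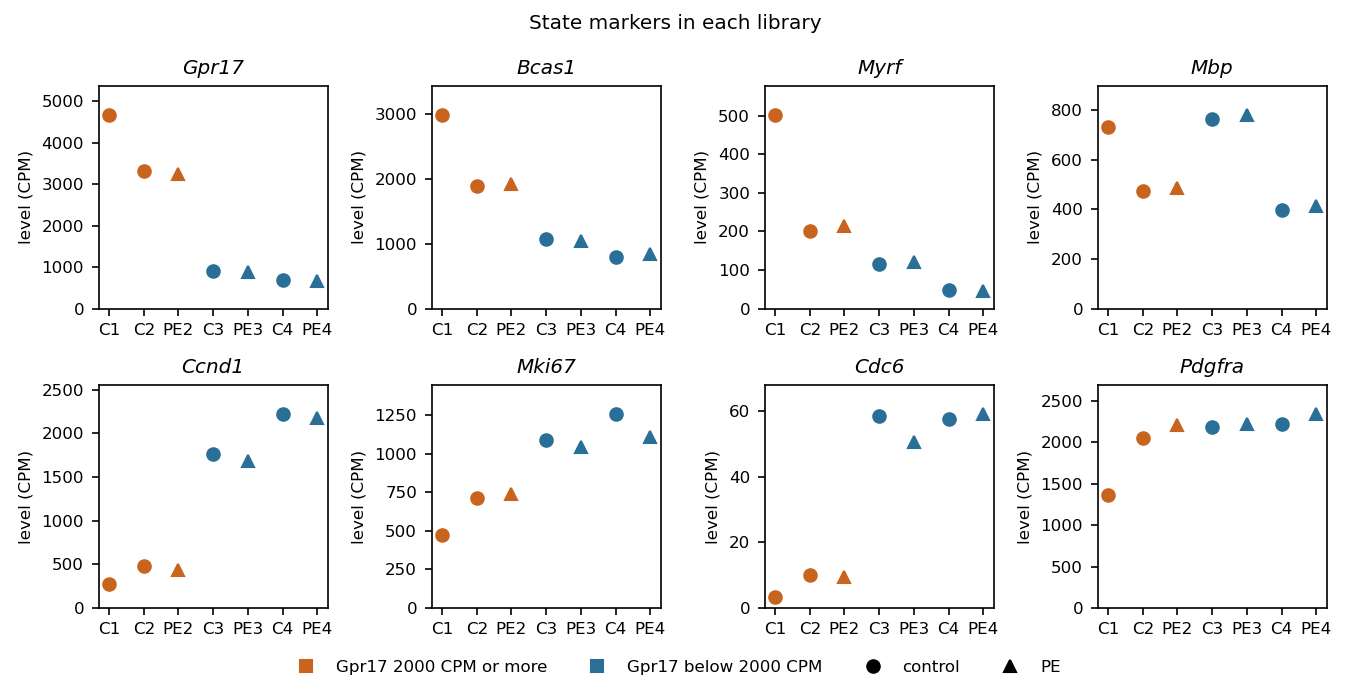
Level in CPM (linear axis from 0) of 8 state markers in each library (circles, controls; triangles, PE; orange, Gpr17 at 2000 CPM or more; blue, below). Gpr17, Bcas1 and Myrf are higher in the orange libraries and Ccnd1, Mki67 and Cdc6 in the blue ones, while Mbp and Pdgfra overlap.

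Replication genes were lower together in the Gpr17-high libraries. All 53 genes of the S phase and DNA replication list were lower in every Gpr17-high library than in every Gpr17-low library, and 49 of them (92.5%) were called, with a median difference of -1.73 beside 0.00 over all genes. Among all genes 26.4% were lower without overlap and 4.29% were called in this direction. Cdc6, which loads the MCM helicase on replication origins, was at 3.46, 9.95 and 9.29 CPM against 58.5, 50.4, 57.4 and 58.9 CPM, a difference of -3.29. Orc1, the largest subunit of the origin recognition complex, was at 2.35, 3.6 and 3.55 CPM against 17.7, 16.7, 26.6 and 29.2 CPM. Cdt1, the partner of Cdc6 in helicase loading, was at 7.20, 17.1 and 14.4 CPM against 76.2, 72.8, 77.3 and 72.8 CPM. In each of these control 1 was the lowest of all libraries. The Gpr17-low libraries lay close together for Cdc6 and Cdt1, while number 4 stood above number 3 for Orc1.

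Further members covered the steps from licensing to DNA repair and chromatin assembly. Ung, which removes uracil from DNA, was at 2.84, 4.82 and 5.46 CPM against 33.1, 31.0, 32.6 and 31.7 CPM. Hells, a chromatin remodeller needed for DNA methylation, was at 17.8, 40.2 and 37.2 CPM against 161, 149, 195 and 190 CPM, and Chaf1b, a subunit of the chromatin assembly factor, differed by -2.50. Mcm2, a subunit of the helicase itself, was at 59.8, 128 and 123 CPM against 318, 304, 353 and 357 CPM. The sliding clamp Pcna differed by -1.38 and the histone chaperone Nasp by -1.31. Rrm1, a subunit of ribonucleotide reductase, was among the 4 that were not called, with 256, 389 and 370 CPM against 496, 502, 550 and 556 CPM.

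Of the 15 G1 regulators, 8 (53.3%) were called higher in the Gpr17-low libraries and 2 (13.3%) in the Gpr17-high libraries. Over all genes these shares were 4.29% and 8.04%. Ccnd2, which encodes cyclin D2, was at 83.5, 131 and 131 CPM against 530, 512, 540 and 503 CPM. Ccnd3 differed by -0.55 and the kinase partner Cdk4 by 0.12, and neither was called. The MYC family split by member. Mycn was at 4.71, 8.12 and 8.66 CPM against 16.2, 14.7, 17.5 and 21.6 CPM, and the activator E2f2 differed by -1.63. Myc was the reverse, at 484, 408 and 383 CPM against 183, 196, 166 and 167 CPM, and Mycl stood at 56.3, 55.8 and 49.5 CPM against 22.4, 21.1, 15 and 16.8 CPM. Myc and Mycl are both among the genes that kept the hepatocyte ratio at the wider limit.

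Genes of G2 and mitosis differed in the same direction by less. Of 55 members, 47 did not overlap, all of them lower in the Gpr17-high libraries, but 8 (14.5%) were called, and the median was -0.69. Among all genes 26.4% did not overlap in this direction and 4.29% were called. Mybl2, an activator of mitotic genes, was at 8.03, 15.1 and 12.2 CPM against 48.4, 38.2, 40.4 and 43.1 CPM. Top2a, which untangles chromosomes, was at 496, 842 and 830 CPM against 1074, 1054, 1215 and 1221 CPM, and the kinase Cdk1 differed by -0.71. Ccnb1, which encodes cyclin B1, was at 79.4, 96.8 and 93.4 CPM against 114, 112, 118 and 115 CPM. Of 18 inhibitors of the cycle, 2 (11.1%) were called, both higher in the Gpr17-high libraries, which is near the 8.04% of all genes. Cdkn1b, which encodes p27, was at 188, 147 and 153 CPM against 143, 146, 144 and 147 CPM, where control 1 stood apart and the other libraries overlapped. Cdkn1a, which encodes p21, differed by -0.15 and Cdkn1c, which encodes p57, by 0.76.

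Lineage genes were split. Of 22 committed precursor genes, 9 (40.9%) were called higher in the Gpr17-high libraries and 0 in the Gpr17-low libraries, with a median of 0.53. These stand beside 8.04% and 4.29% of all genes. Bcas1 (chr2:170346991-170427845, minus strand), the marker of premyelinating cells, was at 2984, 1896 and 1916 CPM against 1074, 1037, 792 and 839 CPM. The transcription factor Tcf7l2 was at 129, 72.5 and 75.3 CPM against 37.9, 38.7, 21.5 and 20.0 CPM, and the sialidase Neu4 was at 108, 82.4 and 81.2 CPM against 39.0, 36.5, 22.5 and 22.6 CPM. Bmp4, a ligand made by early committed cells, differed by 1.58 and the kinesin Kif19a by 1.76. Lims2, at 126, 124 and 125 CPM against 40.9, 43.8, 27.6 and 26.7 CPM, shares exon sequence with Gpr17 on the opposite strand, and the 2 cannot be told apart where they overlap. Bcas1, Neu4 and Lims2 kept the hepatocyte ratio at the wider limit, while Tcf7l2, Kif19a and Bmp4 did not, and all 9 members called are counted here.

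Other members of the same state did not follow. Enpp6, an enzyme of newly formed oligodendrocytes, was at 151, 105 and 116 CPM against 159, 146, 69.6 and 69.0 CPM, and Itpr2, a calcium release channel of the endoplasmic reticulum, at 177, 156 and 178 CPM against 163, 168, 103 and 97.2 CPM. For both, the libraries of number 3 lay within or above the Gpr17-high range, and those of number 4 lay below it. Over the whole list the median deviation from the mean over culture numbers, each weighing equally, was 0.51 in control 1. It was 0.07 and -0.05 in numbers 2 and 3, and -0.68 in number 4.

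Myelin genes were likewise uneven. Of 34 members, 11 (32.4%) were called higher in the Gpr17-high libraries, beside 8.04% of all genes, with a median of 0.74. Myrf (chr19:10208272-10240748, minus strand) was at 502, 200 and 213 CPM against 116, 120, 48.8 and 46.5 CPM, and Cnp, a myelin enzyme that also marks immature cells, was at 1523, 901 and 874 CPM against 567, 562, 387 and 412 CPM. Mbp, the main cytoplasmic protein of compact myelin, was at 733, 474 and 486 CPM against 764, 780, 398 and 415 CPM, and its highest level was in PE 3. Mog, a late myelin gene, was at 5.47, 8.12 and 7.80 CPM against 6.08, 4.99, 8.35 and 8.89 CPM, and the sides overlapped. Trf, the transferrin gene, which both oligodendrocytes and hepatocytes express, differed by 1.39 and kept the hepatocyte ratio at the stricter limit. Between the sides 10 of 22 committed precursor genes, 19 of 34 myelin genes and 7721 of all 15933 genes overlapped. The libraries are named by their Gpr17 level and not as a stage of the lineage.

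OPC identity genes had a median difference of -0.07. Of 28 members, 2 (7.14%) were called higher in the Gpr17-high and 5 (17.9%) in the Gpr17-low libraries. These shares stand beside 8.04% and 4.29% of all genes. Pdgfra, the PDGF receptor that marks OPCs, was at 1368, 2056 and 2208 CPM against 2189, 2218, 2222 and 2339 CPM. Control 1 was the lowest library, and PE 2 was within the Gpr17-low range. The lineage factors Olig1, Olig2 and Sox10 differed by -0.27, -0.24 and 0.44, and Cspg4, which encodes NG2, by -0.55. Nkx2-2, a factor of OPC differentiation, was at 288, 214 and 204 CPM against 86.7, 87.1, 74.5 and 75.5 CPM, which keeps the hepatocyte ratio at the wider limit. Megf11 and the proteoglycan enzyme Xylt1 were also called higher in the Gpr17-low libraries, with differences of -1.69 and -1.52.

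**Figure D3:**
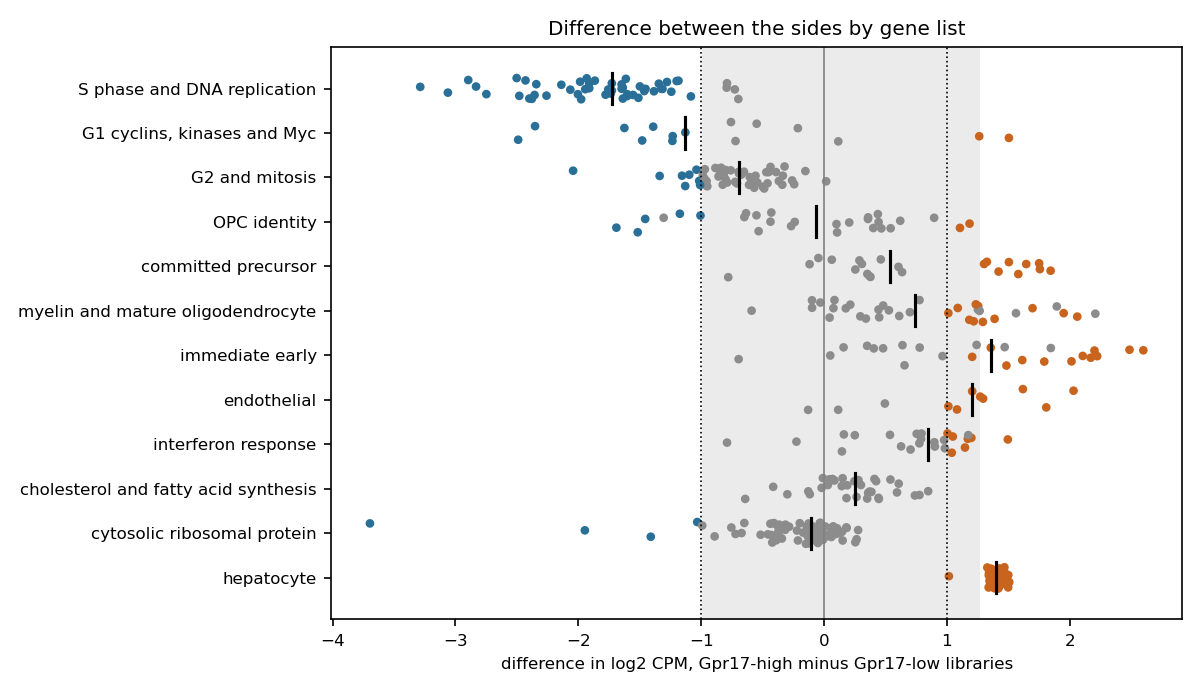
Difference in log2 CPM (Gpr17-high minus Gpr17-low) of each tested member of 12 gene lists, with the median as a black bar (orange and blue, called higher in the Gpr17-high or Gpr17-low libraries; grey, not called). Dotted lines mark a 2-fold difference and the grey band the 5th to 95th percentile of all genes. Replication genes lie at a median of -1.73 and hepatocyte genes at 1.40.

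Immediate early genes, the first genes that cells switch on after a stimulus, were higher in the Gpr17-high libraries even without PE. Of 25 members, 12 (48%) were called over the 7 libraries and 17 in the controls alone, none of them higher in the Gpr17-low libraries, with medians of 1.36 and 1.68. The shares of all genes called higher in the Gpr17-high libraries were 8.04% and 7.8%. Fos (chr12:85473890-85477273, plus strand) was at 384, 500 and 562 CPM against 82.6, 133, 82.1 and 120 CPM. Egr2 was at 56.9, 84.7 and 87.5 CPM against 11.2, 16.8, 13.5 and 17.4 CPM, and Egr1 at 497, 463 and 426 CPM against 133, 159, 179 and 190 CPM. Jun, the partner of Fos in the AP-1 dimer, was at 1251, 1627 and 1504 CPM against 447, 581, 600 and 782 CPM. Arc, an activity-regulated cytoskeletal gene, was at 14.1, 62.2 and 45.2 CPM against 4.99, 5.53, 5.90 and 6.43 CPM. The median deviation of the list from the mean over culture numbers was 0.30 in control 1 and 0.81 in control 2, the reverse of their order for Gpr17.

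Among the genes that differed most were H19, Igf2, Gdnf and Bmp2. H19, an imprinted noncoding RNA, was at 1666, 1055 and 1007 CPM against 116, 127, 41.5 and 44.0 CPM, a difference of 4.15. Its imprinted neighbour Igf2 on the same chromosome (chr7:142650766-142666816, minus strand), which encodes insulin-like growth factor 2, was at 40.1, 13.6 and 15.7 CPM against 1.49 to 2.73 CPM. Gdnf, a neurotrophic factor, was at 26.2, 28.4 and 33.8 CPM against 2.69, 3.66, 2.45 and 4.71 CPM, and Bmp2, a BMP ligand, differed by 2.22. No library of one side overlapped the other side for these 4 genes. Exons of H19 overlap those of Gm27483.

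Other genes at this end had varied functions. Dll3, a Notch ligand, was at 381, 118 and 105 CPM against 26.4, 33.4, 20.7 and 19.5 CPM, led by control 1. Srxn1, a redox enzyme, was at 282, 704 and 684 CPM against 52.6, 68.0, 54.8 and 109 CPM, led by number 2. Nefm, a neurofilament gene, was at 134, 287 and 242 CPM against 23.9, 25, 32.4 and 41.0 CPM. Has2, which makes hyaluronan, differed by 2.33, the collagen Col9a1 by 2.51, the phospholipase Pla2g4a by 2.60 and the metalloproteinase inhibitor Timp3 by 1.91.

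At the other end stood AI506816, a noncoding transcript at 3.95, 2.68 and 3.05 CPM against 41.8, 36.9, 193 and 177 CPM, a difference of -4.65 in which number 4 stood well above number 3. Hmga2, a chromatin protein of fetal progenitors, was at 4.01, 11.6 and 13.1 CPM against 70.0, 66.7, 73.7 and 86.7 CPM. Rorb, a nuclear receptor, was at 14.7, 28.7 and 30.2 CPM against 121, 152, 142 and 177 CPM, while its relative Rora was at 110, 125 and 170 CPM against 32.7, 52.8, 28.5 and 39.8 CPM. The matrix genes Tnc, which encodes tenascin C, and Acan, which encodes aggrecan, differed by -2.13 and -2.52, and the metalloproteinase Mmp15 was at 187, 315 and 297 CPM against 1046, 1046, 932 and 942 CPM. Nes, which encodes the progenitor filament nestin, was at 213, 202 and 206 CPM against 431, 420, 434 and 420 CPM, and Vim, which encodes vimentin, differed by -0.72. Rpl26 differed by -3.70, but it has near-identical copies in the genome among which reads can be split, so its value is uncertain.

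A list of 21 regulators of differentiation, from the Notch, ID, BMP, Wnt and SOX families, did not share a direction. Of these, 5 (23.8%) were called higher in the Gpr17-high libraries and 1 (4.76%), Axin2 at -1.16, in the Gpr17-low libraries. The shares of all genes were 8.04% and 4.29%. The Notch effector Hey1 was at 131, 144 and 136 CPM against 37.0, 44.2, 43.3 and 44.5 CPM, and Hes5, another Notch effector, differed by 1.11. Smad7, an inhibitor of TGF-β and BMP signalling, differed by 1.54 and the Wnt inhibitor Apcdd1 by 1.21. The list thus holds genes known to hold back differentiation, such as Hes5, beside inhibitors of BMP and Wnt signalling, which are known to favour it. Id2 was at 87.3, 94.3 and 115 CPM against 141, 140, 171 and 189 CPM, and Id4, of the same family of differentiation inhibitors, differed by 0.92. Of 26 growth factors and receptors, 6 (23.1%) were called, all higher in the Gpr17-high libraries, beside 8.04% of all genes. Erbb3, a neuregulin receptor, was at 76.1, 59.1 and 67.0 CPM against 20.9, 22.0, 20.1 and 21.6 CPM. Fgf2, a mitogen of OPCs, was at 10.9 CPM in control 1 and at 33.5 and 35.1 CPM in number 2, against 7.13 to 9.85 CPM. Igf1, at 76.1, 66 and 95.1 CPM against 33.7, 38.3, 32.5 and 32.6 CPM, kept the hepatocyte ratio at the wider limit, as did Erbb3 and Smad7.

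Cholesterol and fatty acid synthesis had 0 of 34 genes called in either direction, beside 12.3% of all genes, and a median of 0.26. Hmgcs1, an early enzyme of the cholesterol pathway, was at 1447, 1385 and 1312 CPM against 1049, 1148, 1008 and 1012 CPM, and the desaturase Scd2 differed by 0.35. Of 16 forebrain and hindbrain identity genes, 4 (25%) were called, all higher in the Gpr17-low libraries, beside 4.29% of all genes. Their median was -0.82. The ventral forebrain gene Gsx2 was at 2.84, 6.20 and 4.97 CPM against 13.7, 16.6, 13.0 and 15.4 CPM. Dlx1 reached 15.2 and 16.7 CPM in number 3 and 4.73 and 5.51 CPM in number 4. Lhx2, a factor of the developing cortex, differed by -0.86.

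Markers of other cell types were measured in all libraries. Of 11 endothelial genes, 8 (72.7%) were called higher in the Gpr17-high libraries, beside 8.04% of all genes. The endothelial list summed to 77.3 to 105 CPM against 27.1 to 35.4 CPM. Its median difference was 1.21, beside 1.40 for hepatocyte genes. The endothelial and hepatocyte sums had the same order over all libraries, from PE 2 as the highest to PE 4 as the lowest. Whether they share a source was not tested. Vwf stood at 29.0, 22.2 and 28.3 CPM against 8.31, 9.43, 3.95 and 5.16 CPM, and Kdr at 15.8, 22.8 and 33.1 CPM against 4.41, 7.48, 5.51 and 5.80 CPM. Of 19 astrocyte genes, 5 (26.3%, beside 8.04% of all genes) were called higher in the Gpr17-high libraries, including Clu and Agt, which kept the hepatocyte ratio. The astrocyte list summed to 2623 to 3730 CPM against 2248 to 2647 CPM. Gfap, an astrocyte filament, was at 263, 553 and 538 CPM against 238, 234, 188 and 197 CPM. Aldh1l1 and Atp1b2 differed by 1.05 and 1.07, and the glutamate transporter Slc1a3 by -0.55. Of 19 microglia and macrophage genes, 2 (10.5%) were called, both higher in the Gpr17-high libraries, which is near the 8.04% of all genes. The sums of 115 to 185 CPM and 117 to 191 CPM overlapped. Tyrobp and Cx3cr1 were lowest in control 1, at 2.22 and 1.32 CPM, and Aif1 was under 2 CPM in every library. In bulk libraries a change in the share of a cell type and a change of RNA per cell cannot be told apart, and the part of these cell types in the differences was not tested.

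Motifs in promoters followed the lists. In RefSeq windows of 250 bases before to 50 after the start, available for 11084 of the tested genes with 14231 windows, an E2F motif was searched as TTTCCCGC, TTTGGCGC, TTTGCCGC or TTTCGCGC on both strands. It was found in 31.9% of the 47 windows of replication genes and in 3.75% of all windows. Of the 600 windows of genes called higher in the Gpr17-low libraries 9.83% held it, and of the 1088 windows of genes called higher in the Gpr17-high libraries 1.38%. Genes of G2 and mitosis held the cell cycle homology element (TTTGAA or TTCGAA) in 72.5% of 51 windows, against 13.8% of all. The CCAAT box was in 78.4% of them, against 37.6% of all. A CArG box was in 13.8% of the 29 windows of immediate early genes, in 2.67% of those called higher in the Gpr17-high libraries and in 1.31% of all. A match is a description of these letters and not a bound site.

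The 4 control libraries alone gave a similar picture with 2 libraries a side. In them 1243 genes (7.8%) were called higher in the Gpr17-high and 774 (4.86%) in the Gpr17-low libraries. Of these, 1102 and 652 were also called over all 7 libraries, of which the controls are a part. Replication genes had a median of -1.74 with 49 of 53 called, mitotic genes a median of -0.72 with 10 of 55, and committed precursor genes a median of 0.53 with 9 of 22. Mki67 passed the 2-fold limit in the controls and Nr4a1, Nr4a3 and Fosl2 joined the genes called higher in the Gpr17-high libraries.

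The sides were not uniform inside. Control 1 had the most Gpr17 and the least Ccnd1, and was often the extreme library of its side. Of the 684 genes called higher in the Gpr17-low libraries, 99 were higher in control 1 than in number 2, and 138 were at least 2-fold lower there. Of the 1281 genes called higher in the Gpr17-high libraries, 691 were higher in control 1 than in number 2, with 23 at least 2-fold higher and 28 at least 2-fold lower. On the other side, number 3 was above number 4 in 1017 of the 1281 genes and in 235 of the 684. Replication genes had a median deviation from the mean over culture numbers of -1.36 in control 1 and -0.44 in number 2, against 0.77 in number 3 and 0.96 in number 4.

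The response to PE was not used by the split and was tested. With treatment alone in edgeR's quasi-likelihood test (two-sided, Benjamini-Hochberg adjustment over 15933 genes), 0 genes passed an adjusted p of 0.05 and 71 had an unadjusted p under 0.05, while DESeq2 called 2 genes and limma-voom 0. With the replicate number as a block, which sets each PE library against its own control, 86 genes (0.54%) passed, 80 (0.502%) higher and 6 (0.0377%) lower after PE. Among the genes called higher in the Gpr17-high libraries 14 rose after PE (1.09%), and among those called higher in the Gpr17-low libraries 4 rose and 1 fell (0.731% together). The treatment groups were 2 Gpr17-high and 2 Gpr17-low controls against 1 and 2 PE libraries, so the split weighs unequally on an unpaired comparison. Among genes called higher in the Gpr17-high libraries the median PE change was -0.08 without the block and 0.14 with it.

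Rora, Rorb and Fos were among the PE-responsive genes that split the sides. Rora rose by 0.53 ± 0.06 (SE, log2) in the blocked edgeR fit, with adjusted p = 0.000487 and changes of 0.46, 0.69 and 0.47 in pairs 2, 3 and 4. Rorb, which lies at the other end of the split, rose by 0.27 ± 0.05 with adjusted p = 0.0317, higher in 3 of 3 pairs. Fos rose by 0.45 ± 0.07 (adjusted p = 0.00401), the nuclear noncoding RNA Neat1 by 0.48 ± 0.08 (adjusted p = 0.00587), the antiproliferative gene Btg2 by 0.41 ± 0.07 (adjusted p = 0.0150) and the MAP kinase phosphatase Dusp10 by 0.62 ± 0.11 (adjusted p = 0.0133). The others that rose were Bhmt, Camsap2, Enc1, Gm37310, Junb, Lrrtm2, Maff, Utp14b and Zfand5. On the Gpr17-low side Adgra1, Gas1 and the imprinted gene Mest also rose, Mest by 0.38 ± 0.05 (adjusted p = 0.00127), and Inka2 fell by 0.30 with SE 0.04 (adjusted p = 0.00311). All 3 pairs had the direction given for each of the genes with values here. Of the called genes that passed this PE test, 1 is in the hepatocyte list. The hepatocyte ratio was kept by 2 of them at the wider limit and by 0 at the stricter. The part of hepatocyte transcripts in these PE changes was not tested.

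The PE change of pair 2, the only Gpr17-high pair, was set against that of the 2 Gpr17-low pairs as an interaction with the replicate block, which leaves 1 residual degree of freedom. In edgeR 337 genes (2.12%) passed an adjusted p of 0.05, 221 with the more positive change in pair 2 and 116 with the more positive change in pairs 3 and 4. This is the sign of the difference between signed changes and not the size of a response. limma-voom called 297, but DESeq2 called 0 with a smallest adjusted p of 0.0513, and the fit without the block called 0. The call thus depends on the tool, and with 1 pair on the Gpr17-high side a difference between the sides cannot be told apart from one of pair 2 alone.

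Immediate early genes made up 17 of the 337 in edgeR, all with the more positive change in pairs 3 and 4. Nr4a1, an orphan nuclear receptor (chr15:101254269-101274795, plus strand), was at 300, 619 and 896 CPM against 94.5, 260, 87.0 and 356 CPM. It changed by 0.55 in pair 2 and by 1.47 and 2.02 in pairs 3 and 4, a difference of -1.20 (log2). Its adjusted p was 9.1e-51 in edgeR but 0.999958 in DESeq2 and 0.999839 in edgeR without the block, so no difference between the sides is read from it. Nr4a3 was at 177, 261 and 509 CPM against 56.5, 201, 14.4 and 135 CPM, with changes of 0.99, 1.83 and 3.2. Fosl2, an AP-1 member, was at 257, 486 and 578 CPM against 100, 240, 84.1 and 265 CPM, with changes of 0.27, 1.27 and 1.64. Junb changed by 0.15, 0.74 and 0.71, and Csrnp1 by 0.10, 0.77 and 1.12. For each of these genes control 2 already stood above both Gpr17-low controls, and the control level and the change share that library. After PE, Fos was still higher in pair 2, at 562 CPM against 133 and 120 CPM.

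Of the 221 genes with the more positive change in pair 2, 103 kept the hepatocyte ratio at the stricter limit and 125 at the wider one. That ratio was taken over all libraries, PE libraries included, so a gene that keeps it repeats the PE changes of the hepatocyte sum. The direction of these genes is thus largely fixed by the limit and is no separate result. Hepatocyte genes had median changes of 0.53, 0.12 and -0.22 in pairs 2, 3 and 4, and 43 of 52 passed the interaction test in edgeR. Alb changed by 0.52, 0.11 and -0.22, and Apob, C3, Fgb, Ttr and Vtn had the same order over the pairs. Cytosolic ribosomal protein genes had medians of -0.11, 0.02 and 0.10 in the same pairs. The part of these shifts in the differences between pairs was not tested.

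**Figure D4:**
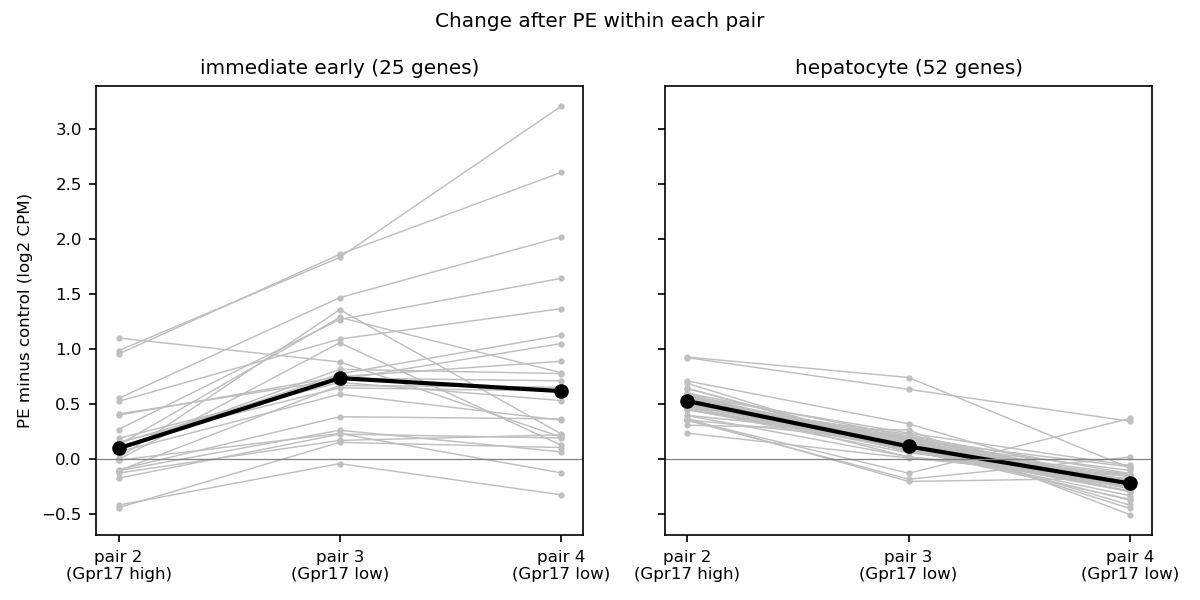
Change after PE in log2 CPM within each pair of control and PE libraries, 1 grey line per gene and the median in black, for immediate early genes (left) and hepatocyte genes (right). The immediate early median is 0.10 in pair 2 and 0.74 and 0.62 in pairs 3 and 4, and the hepatocyte median falls from 0.53 to -0.22.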

How the data were processed

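The authors deposited 1 table of whole-number read counts per Ensembl gene with no normalization, 7 columns for 4 untreated and 3 PE libraries of primary mouse OPCs. STAR and HTSeq made them on GRCm38/mm10 after bcl2fastq 2.17, per the submitters' processing notes. Which annotation release and strand setting applied is not given in the sources used here. A SMART-Seq v4 and Nextera XT kit, per the labels' protocols, amplified full-length cDNA without marking strand, so overlapping genes cannot be told apart. The labels also describe tamoxifen, virus and immunoprecipitation steps that do not match wild-type primary cells, and whether these applied was not tested.

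Groups and replicate numbers came from the titles. Levels are CPM, the count per 1e+06 counts of a library, in which 3 counts correspond to 0.167 to 0.234 CPM. This covers counting error only. Differences are of log2 CPM with TMM normalization and a prior count of 2 in edgeR 4.0.16 (R 4.3.3), after filterByExpr (minimum count 10, minimum total 15). A gene was called where the difference was at least 2-fold and no library overlapped. PE was tested with edgeR's quasi-likelihood test, with DESeq2 1.42.0 and limma 3.58.1 as alternatives. Standard errors were taken from each F statistic and draw on all genes. The numbers were taken to pair the libraries, since deviations of same-numbered libraries from their group means correlated at 0.74, 0.67 and 0.79, each over 0.1, and their title codes match. PE 2 also correlated at 0.67 with control 1. The labels do not tie numbers to animals, so p-values speak only to the spread among these libraries, partly technical perhaps. Every pair of libraries differed by more than sampling noise, with chi-square of 2.43 to 99.5 per degree of freedom.

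The split, the gene lists and the tests were chosen with earlier results of these data known. Named genes were those fixed for the cell type, the 20 per direction with the greatest difference among genes called over 7 libraries and in the controls at a mean of 10 CPM or more, up to 6 per list, 6 per direction of the PE interaction, and those called and changed by PE. The text leaves some out, and some results are not reported here. The 53 hepatocyte genes were chosen after the data were seen. Positions are from GENCODE M21 and promoters from RefSeq on GRCm38.p6. The scripts were tested on simulated counts.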

Additional observations from a re-analysis of the deposited data

Results flagged for a closer look

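Among the 4 controls, 1 library stood far from the other 3 for 3 of 129 named genes. Many of the named genes were chosen for their difference between the sides, so this count cannot be set against chance. Arc reached 62.2 CPM in control 2, Cdkn1b 188 CPM in control 1 and Fgf2 33.5 CPM in control 2.

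The PE change of pair 2 differed from that of pairs 3 and 4, by the interaction with the replicate block in edgeR, for 28 of the named genes. With 1 Gpr17-high pair and 1 residual degree of freedom, the side and pair 2 cannot be told apart. Immediate early genes had the less positive change in pair 2, with differences of -1.38 for Nr4a3, -1.29 for Nr4a2, -1.20 for Nr4a1, -1.19 for Fosl2, -0.88 for Fosb, -0.86 for Csrnp1, -0.58 for Junb, -0.48 for Maff, -0.47 for Jun, -0.42 for Fos and -0.26 for Egr1. The same sign was measured for Bmp2 at -1.17, Srxn1 at -0.74, Dusp10 at -0.70, Nefm at -0.45, Neat1 at -0.29 and Lrrtm2 at -0.26. Genes that keep the hepatocyte ratio had the more positive change in pair 2, with 0.65 for Fgb, 0.64 for Ttr, 0.58 for Alb, 0.57 for Apob, 0.57 for Vtn, 0.54 for C3, 0.53 for Trf, 0.52 for Agt, 0.46 for Igf1 and 0.40 for Clu. Their direction is largely fixed by the limit on that ratio, which was taken over all libraries, and is no separate result. Tnc differed by 0.34. DESeq2 called none of these, and the fit without the block called none.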

How the results depend on the processing

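Each side holds 2 culture numbers, which limits every count. Genes called higher in the Gpr17-high libraries (1281) numbered 503 at a mean of 10 CPM or more, 2277 at 1.5-fold, 58 at 4-fold, 420 when the Gpr17 limit was 4000 CPM, which leaves control 1 alone on that side, and 617 without genes that keep the hepatocyte ratio at the wider limit. They ranged from 1118 to 1554 when libraries or numbers were left out in turn. Genes called higher in the Gpr17-low libraries (684) numbered 381, 1874 and 81 at the first 3 of these settings, and ranged from 503 without control 1 to 1225 without number 2. In the controls alone, 1243 became 666 without genes that keep the hepatocyte ratio at the wider limit and ranged from 1095 to 1520 with 1 library left out, and 774 ranged from 593 to 1245, the highest without control 2. The hepatocyte settings were chosen after seeing the data. A limit of 1000 CPM leaves the sides as they are. Library totals, DESeq2 size factors, prior counts of 0.5 and 10, no filter, and control or PE libraries alone kept both counts within 1.5 times.

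Of called genes, 0 passed the PE test unpaired in edgeR and 19 with the replicate block, 6 with the block in DESeq2 and 18 in limma-voom. With the block and 1 number left out there were 10 to 160, the highest without number 4 and 57 without number 2. The blocked DESeq2 and limma-voom fits of this PE test and its blocked fits without a number were chosen after seeing the data. The 337 genes whose PE change differed between pair 2 and the other pairs in edgeR became 0 in DESeq2, 0 without the block and 210 without genes that keep the hepatocyte ratio at the wider limit. Of single libraries, only control 1 could be left out of this interaction. Without a library of number 2 the interaction cannot be estimated. Without a library of number 3 or 4 no residual degree of freedom is left. The difference of Fgf2 turned to -0.36 at the Gpr17 limit of 4000 CPM. Of 1806 further values of the 129 named genes, 1709 moved by less than 0.5 of the range over culture pairings, 96 by more and 1 changed sign. A change of sign was counted only for genes called between the sides. Among other named genes it falls under the first 2 counts. The cause of these shifts was not tested. Depth limits genes near 3 counts per library.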
